A study of Caenorhabditis elegans with 2 samples.

Results

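The genes of the small nuclear RNAs (snRNAs) and small nucleolar RNAs (snoRNAs) of Caenorhabditis elegans were examined for binding of DPL-1. All 475 nuclear genes that the WBcel235 annotation gives as snRNA (129 genes) or snoRNA (346 genes) were taken, out of 46890 nuclear genes, each with 250 bp on either side. A copy was called hosted when a protein-coding gene on the same strand spanned it whole (220 genes) and stand-alone otherwise (255 genes). Binding had been measured by chromatin immunoprecipitation with sequencing (ChIP-seq) in 1 group of 2 biological replicates of whole young adult worms, males and females pooled, with no second genotype or treatment to compare. Both replicates were of strain YL390, which carries the unc-119(ed3) mutation on chromosome III and the transgene vrIs48. In vrIs48 the pie-1 promoter drives DPL-1 tagged with GFP and FLAG; the array also holds the 3′UTR of dpl-1 and a working copy of unc-119. The pie-1 promoter is best known from the germ line, so binding of the tagged protein in tissues where it is silent would not be seen. The labels describe ChIP against the GFP fusion and name dpl-1 in their antibody field. Whether untagged DPL-1 was also precipitated cannot be told from them. Peak lists hold no RNA levels, so the labelled tissue could not be checked against marker genes.

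DPL-1 is the worm DP protein, which binds DNA as a pair with an E2F-type factor and is part of the DREAM complex. snRNAs form the spliceosome, and nematodes also have spliced leader RNAs, which donate the leader that is trans-spliced onto messenger RNAs: the sls-1 genes encode SL1 RNA and the sls-2 genes encode SL2 RNA, the leader of downstream genes in operons. Animal snRNA genes carry a proximal sequence element (PSE) upstream, bound by the SNAPc complex. snoRNAs guide the methylation (box C/D) and pseudouridylation (box H/ACA) of ribosomal RNA; many worm copies lie in introns, and some have promoters of their own. The B box is a promoter element of tRNA genes that is bound by TFIIIC, a factor of RNA polymerase III.

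The sequences below show the letters on which the results by upstream sequence turn. Each is 30 bases from the RefSeq sequence of WBcel235 (ce11), printed 5′ to 3′ on the strand of the RNA gene. In the first set, capitals mark the fixed letters AAC, a C after 1 further base, and GTC after 7 further bases, together called PSE-like here. The first 6 genes had an optimal IDR summit, a term explained with the counts, and sup-39 and sls-2.14 had none.
sls-2.8 (chrIII:12250399-12250428, plus strand): ccggcggAACcCggcaaatGTCcgtccaca
sup-6 (chrII:12945001-12945030, minus strand): gcggcggAACcCgccacatGTCggcacaca
W05B2.8 (chrIII:10989605-10989634, plus strand): ccagcggAACcCatgacatGTCtgctacac
Y53F4B.47 (chrII:15025948-15025977, minus strand): ggcgcggAACcCgtcacttGTCtgctgcgg
F54F11.6 (chrII:13521235-13521264, plus strand): cacgcggAACcCgcgaaatGTCcgctgcgg
C16D9.11 (chrV:8229005-8229034, minus strand): tctgcggAACcCgcgtagtGTCgggcgcgg
sup-39 (chrII:6968591-6968620, minus strand): gctgcgaAACcCgcgagatGTCcgaacaca
sls-2.14 (chrIII:11090560-11090589, minus strand): cgcgcggAACcCgcgagatGTCggcacaca

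In the second set, all upstream of snoRNA genes, capitals mark the fixed letters of GTTCNANNC, the letters of a tRNA-type B box. The first 6 genes had an optimal IDR summit and C41C4.11 had none.
T03F7.8 (chrV:11314228-11314257, plus strand): cgggacacgacacacccgaGTTCaAttCcc
Y43F8C.22 (chrV:19643188-19643217, minus strand): cctgccgcccacagcttccggGTTCgAttC
C51F7.3 (chrV:12303654-12303683, plus strand): ggcttcgttgGTTCgAccCccgcgcgtagt
W03C9.9 (chrII:11960861-11960890, plus strand): cacgccgcggGTTCgAccCccccccccccg
F11A10.9 (chrIV:12086679-12086708, plus strand): gcgcccacgaGTTCgAccCccactgcttgc
F12F6.11 (chrIV:11549865-11549894, minus strand): tttatgcatcacggGTTCgAttCtcgtggc
C41C4.11 (chrII:8107271-8107300, minus strand): ctcgctcttacctcaaaaGTTCgAtaCcgg

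In the optimal IDR list DPL-1 summits lay at a minority of snRNA and snoRNA genes, and at snoRNA genes more than at snRNA genes by count. Of the 475 genes, 54 (11.4%) had the summit of an optimal IDR peak in their window, beside 0.946% of 160434 nuclear genome windows of 625 bp, the members' median window length. The share was 13.3% for snoRNA genes (46 of 346) and 6.20% for snRNA genes (8 of 129). The optimal IDR list is what the authors kept after an irreproducible discovery rate (IDR) filter, which compares the ranks of peaks between calls. It was the same as the 1546 strongest peaks of the pooled list, so a place in it is a threshold on the pooled signal (23.7 and above) and does not show that both replicates had the peak. Read depth is unknown because the lists hold no counts, so no counting error stands beside a signal, and no test was run between these counts.

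Stand-alone snoRNA genes had the largest share of the 4 classes. An optimal IDR summit lay at 28 of 163 stand-alone snoRNA genes (17.2%) and at 18 of 183 hosted ones (9.84%). For snRNA genes the shares were 6.52% of 92 stand-alone copies and 5.41% of 37 hosted copies, 6 and 2 genes. Among other small RNA genes with the same 250 bp on either side, 9.64% of 612 tRNA genes, 3.45% of 261 miRNA genes and 0.156% of 15363 piRNA genes had such a summit. Windows of 625 bp at protein-coding gene starts, beginning 250 bp upstream of the gene's 5′ end, had one in 4.92% of 19973 cases. A wider window, 1000 bp upstream to 500 bp downstream of any annotated coding transcript start, had one for 9.16% of these genes. Over all members, hosted and stand-alone shares in each replicate's own 1546 strongest peaks were 6.36% and 10.6% in replicate 1. In replicate 2 they were 9.55% and 14.5%, so the stand-alone share was the higher in both. The same order held for snoRNA genes alone (6.56% and 13.5%, then 9.29% and 19.6%). For snRNA genes the shares were 5.41% and 5.43% in replicate 1. In replicate 2 the hosted snRNA share was the higher (10.8% and 5.43%). For these lists 0.944% and 0.942% of the genome windows held a summit.

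**Figure D1:**
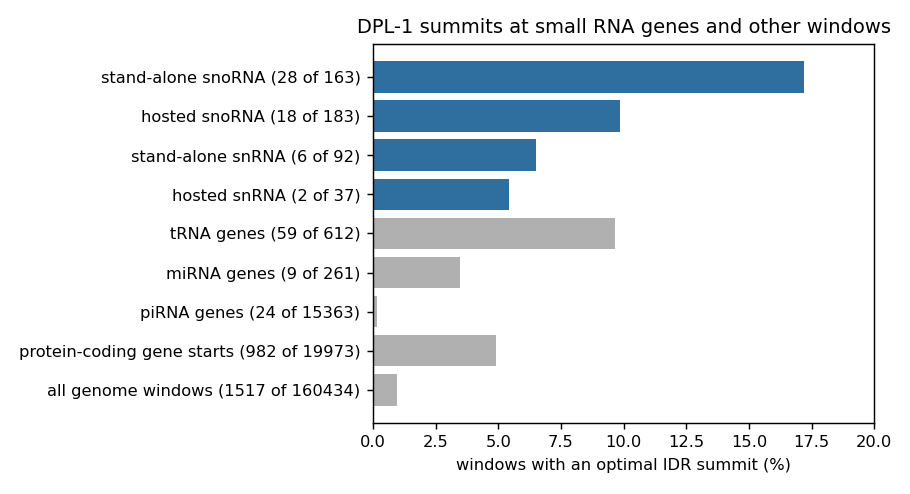
Share of windows (x axis, percent) that held an optimal IDR summit, by class of gene or window (y axis, with the counts). Blue bars are the snRNA and snoRNA classes and grey bars are other windows; stand-alone snoRNA genes reached 17.2%, tRNA genes 9.64% and all genome windows 0.946%.

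In the longer pooled list, which holds peaks and background, 225 of the 475 genes (47.4%) had a summit, beside 18.0% of the genome windows, 26.6% of the windows at protein-coding gene starts and 77.6% of the tRNA genes. The replicate 1 list gave 190 genes (genome windows 17.9%) and the replicate 2 list gave 240 genes (50.5%, genome windows 17.9%). In the pooled list snoRNA and snRNA genes had similar shares (48.3% and 45.0%), as did hosted and stand-alone copies (47.3% and 47.5%). Hosted and stand-alone pooled shares were 64.9% and 37.0% for snRNA genes and 43.7% and 53.4% for snoRNA genes. Hosted copies had the higher share in the replicate 1 list (43.2% and 37.3%) and the replicate 2 list (51.4% and 49.8%). Of the members with a pooled summit, the 5 strongest outside the optimal IDR list had signals of 22.6 to 23.7. They were the snoRNA genes C41C4.11 and C05D2.15, the snRNA genes H27M09.6 and ZK897.2, and sls-2.4, an SL2 RNA gene. Their pooled ranks were 1549 to 1628, just behind the last optimal rank of 1546.

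The summits at the members clustered upstream of the RNA genes. The strongest optimal IDR summit was upstream of the gene at 36 of the 54 members, inside it at 12 and downstream at 6, and its median position was 30 bp upstream of the 5′ end (-30 bp, quartiles -65 and 8 bp). It lay within the 100 bp upstream at 31 of the 54 (57.4%). The window reaches as far downstream as upstream, and the 225 pooled summits were placed 112 upstream, 68 inside and 45 downstream. The 54 genes shared 53 summits, since C51F7.3 and C51F7.4, snoRNA genes side by side in an intron and an exon of frm-7, had a summit in common.

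Most of the members' summits were away from the starts of protein-coding genes. Of the 54, 33 lay outside every promoter window (1000 bp upstream to 500 bp downstream of any annotated coding transcript start), and 31 were over 1000 bp from any such start. By placement, those outside were at 15 of the 20 hosted and 18 of the 34 stand-alone copies, out of 220 hosted and 255 stand-alone genes. Summits inside promoter windows were at 5 hosted and 16 stand-alone copies, so the higher stand-alone share came mostly with these. Over the whole list 236 nuclear optimal IDR summits lay outside promoter windows, and 32 of them (13.6%) were in snRNA or snoRNA windows, while 36 were within 250 bp of tRNA genes. A single summit was in windows of both kinds. In all, 53 of the 1522 nuclear optimal IDR summits (3.48%) were in the windows.

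Signals at the members were lower than in the list at large. Their median was 35.0 (range 23.8 to 157), beside 42.2 for all optimal IDR peaks, and 16 of the 54 ranked among the 773 strongest. Signal is the authors' peak caller's value, each list has its own scale, and values are compared here within a list or as ranks.

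The SL2 RNA gene sls-2.8 (chrIII:12250465-12250575, plus strand) had the strongest summit of all members, 88 bp upstream of its 5′ end. Its signal was 157 in the pooled list (rank 81), 50.9 in replicate 1 (rank 60) and 107 in replicate 2 (rank 97). The same summit lay 213 bp upstream of the start of tim-1, a Timeless-family gene of chromosome cohesion, so which of the 2 genes it belongs to cannot be told apart. Its PSE-like letters, printed above, began 59 bases upstream. Of 18 sls-2 genes, 4 had an optimal IDR summit and 14 a pooled one; the counts were 10 in the replicate 1 list and 16 in the replicate 2 list. The others were sls-2.2 (pooled signal 44.2, rank 721), sls-2.1 (26.3, rank 1373) and sls-2.9 (25.6, rank 1415). At sls-2.2 the summit was inside the gene and 1190 bp from the nearest coding start, that of the insulin-like gene ins-13, and it ranked 2004 in replicate 1 and 555 in replicate 2. At sls-2.9 the replicate 2 rank was 969 and no replicate 1 peak had its summit within 100 bp.

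None of the 12 sls-1 genes, which encode SL1 RNA and lie together on chromosome V, had a summit in any of the 4 lists. The 100 bases upstream recurred exactly elsewhere in the nuclear genome for 11 of these 12, for none of the 18 sls-2 genes, for 5 of the other 99 snRNA genes and for 5 of the 346 snoRNA genes. How reads that match several places were handled is not given in the sources used here, and its part in the absence of sls-1 summits was not tested.

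The U1 snRNA genes sup-6 and sup-39, first known as suppressor loci, carry the same type of upstream letters but differed in rank. At sup-6 (chrII:12944803-12944967, minus strand), inside F58G1.7, the summit was 18 bp upstream, 3273 bp from the nearest coding start, and had a pooled signal of 44.7. It ranked 712 in the pooled list, 1000 in replicate 1 and 633 in replicate 2. At sup-39 the pooled signal was 16.4 (rank 2450), with ranks of 28581 and 1491 in replicates 1 and 2. Both replicates ranked sup-6 within their 1546 strongest peaks, and only replicate 2 did so for sup-39.

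Grouped by sequence (80% identity over 80% of the shorter gene), the snRNA genes fell into 11 families and 14 single genes, and no family had more than 3 members with an optimal IDR summit. The 14-member family of sup-6 had 1 such gene and 12 with a pooled summit. It counts mir-1831, annotated as a snRNA gene of 22 nt inside sup-39, and T27E4.22, which overlaps T27E4.12. Each of these pairs shares its pooled summit. The 22-member family of W05B2.8 had 1, W05B2.8 itself, and 5 with a pooled summit. Of the 12 genes related to F38E11.10, 1 had an optimal IDR summit and 9 a pooled one, and of the 5 related to C52E4.8, 1 had an optimal IDR summit and 3 a pooled one. A family of 19 genes of 185 to 187 nt, to which R05D7.6 and W07G1.8 belong, had no optimal IDR summit and 10 pooled ones. Of 10 snRNA genes with smy symbols, which encode smY RNAs linked to trans-splicing, none had an optimal IDR summit and 4 had a pooled one. Identical copies were common: 44 members, all snRNA genes, had a gene sequence identical to another's, and 3 of the 44 had an optimal IDR summit.

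W05B2.8 (chrIII:10989679-10989780, plus strand) lies inside dhc-4, a dynein heavy chain gene, with its summit 24 bp upstream and 1782 bp from the start of the collagen gene col-94. Its pooled signal was 37.8 (rank 865), and it ranked 5622 in replicate 1 and 667 in replicate 2. C52E4.8 (chrV:11980118-11980261, plus strand) had its summit 29 bp upstream, 366 bp from the start of snr-4, an Sm protein gene, whose product binds snRNAs. Its pooled signal was 38.1 (rank 856), with ranks of 1238 and 903. Of these 2 genes, C52E4.8 ranked within the 1546 strongest of both replicates and W05B2.8 only in replicate 2.

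Among snoRNA genes the strongest summits were at shared promoters. At F54E7.10 (chrIII:5679378-5679509, plus strand), in an intron of the ribosomal protein gene rps-12, the summit lay 232 bp upstream in the promoter of the host, 141 bp from the start of the kinetochore gene ska-3. The pooled signal was 137 (rank 120), the replicate 1 signal 28.1 (rank 276) and the replicate 2 signal 104 (rank 110). The replicate 1 summit fell 31 bp further out and so just outside the window. At F09G2.14, the longest member at 344 nt, the pooled signal was 123 (rank 146), with ranks of 131 and 175 in replicates 1 and 2, and the start of F09G2.2 was 264 bp away. Both genes ranked high in each replicate, and at F54E7.10 the replicate 2 rank was the better.

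Further snoRNA genes near coding starts were Y53F4B.47, M03D4.78 and F39B2.14. At Y53F4B.47 (chrII:15025814-15025893, minus strand) the summit was 86 bp upstream, and 135 bp from the start of the cap methyltransferase gene cmtr-1. Its pooled signal was 78.7 (rank 329), with ranks of 427 and 317. M03D4.78 had a pooled signal of 50.6 (ranks 648 and 584 in the replicates), with its summit 197 bp from the start of zen-4, the kinesin of the central spindle. F39B2.14, hosted by tmem-107, had 46.7 (ranks 668 and 638). At all 3 genes the ranks of the replicates were close.

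Other strong summits had no coding start nearby. At Y23H5B.10 (chrI:2514168-2514311, minus strand) the summit was 19 bp upstream of the snoRNA gene and 16196 bp from the nearest coding start, the farthest of all 54. Its pooled signal was 55.0 (rank 543), and its ranks were 698 in replicate 1 and 504 in replicate 2. At C26C6.13 the summit lay 212 bp past the 5′ end, downstream of the gene, and 3082 bp from the start of goa-1, a G protein alpha subunit gene. The pooled signal there was 75.9 (rank 359), with ranks of 285 and 399. Both genes were therefore found in both replicates at a distance from coding starts.

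**Figure D2:**
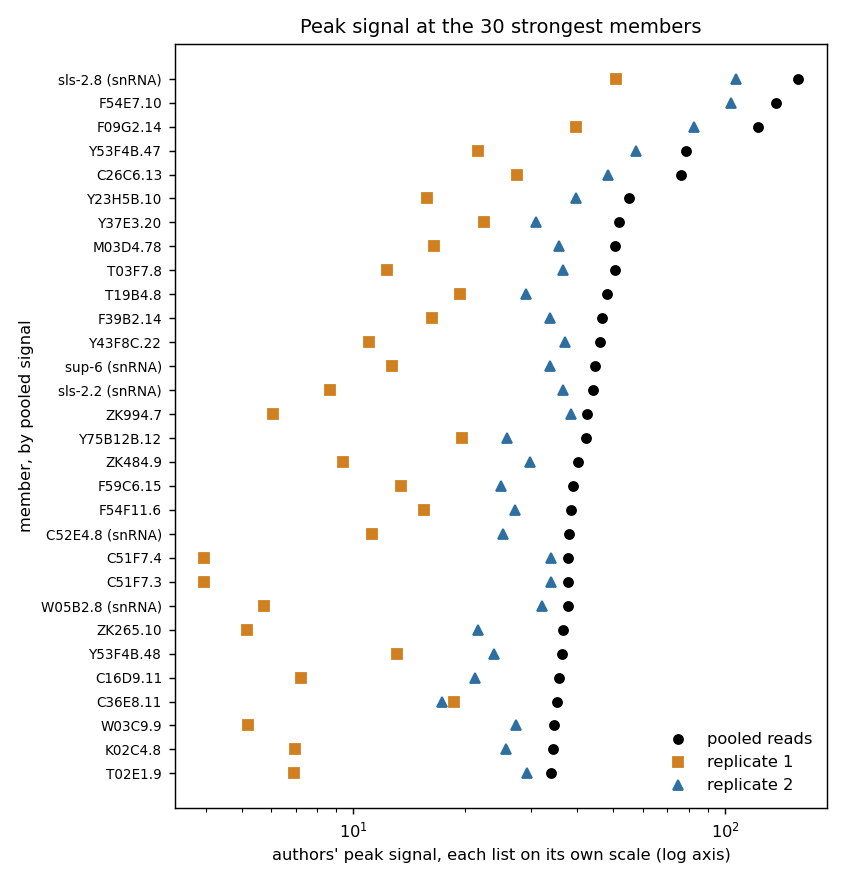
Authors' peak signal (x axis, log scale) at the 30 members of highest pooled signal (y axis) in the pooled list (black circles), replicate 1 (orange squares) and replicate 2 (blue triangles), from the strongest summit in each window. The scales differ between lists; the replicate 1 signals spread from 3.97 at C51F7.3 to 50.9 at sls-2.8, and F54E7.10 has no replicate 1 summit inside its window.

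Upstream of many members lay one of the 2 kinds of letters printed at the start. The letters were chosen after the members' sequences and summits had been seen, so the counts by letters describe these genes and support nothing beyond them. Matches were sought in the 100 bases upstream of the gene, on its own strand, and no member held both kinds. The PSE-like letters were upstream of 45 of 129 snRNA genes (34.9%) and 38 of 346 snoRNA genes, beside 0.230% of protein-coding gene starts. On the other strand they were upstream of none of the snRNA genes and 3 snoRNA genes (0.867%), beside 0.160% of protein-coding starts. Their first base had a median position of 59 bases upstream (-59) in both classes. The B box letters were upstream of 33 snoRNA genes (9.54%) and 1 snRNA gene (0.775%), beside 1.43% of protein-coding starts. On the other strand they were upstream of 3 snoRNA genes and no snRNA gene, beside 1.06% of protein-coding starts. Their first base had a median position of -14 at the snoRNA genes, close to the gene, and 28 of the 33 began within the last 29 bases.

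snoRNA genes with either kind of letters had summits more often, by count, than snoRNA genes with neither. An optimal IDR summit lay at 13 of the 33 snoRNA genes with B box letters (39.4%), at 11 of the 38 with PSE-like letters (28.9%) and at 22 of the 275 with neither. For snRNA genes the shares lay close together, 3 of 45 with PSE-like letters (6.67%) and 5 of 83 with neither (6.02%). In the pooled list 31 of these 45 snRNA genes (68.9%) had a summit and 27 of the 83 (32.5%). The 83 include the 12 sls-1 genes, which had no summit in any list. Among the 45, sup-39 and mir-1831 share their letters and pooled summit, as do T27E4.12 and T27E4.22. For snoRNA genes the pooled shares were 81.8% with B box letters, 81.6% with PSE-like letters and 39.6% with neither.

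The 2 replicates differed at the B box snoRNA genes. Among its own 1546 strongest peaks replicate 1 had a summit at 7 of the 33 (21.2%) and replicate 2 at 16 (48.5%), so that replicate 2 carries more of this count. At the tRNA genes, whose promoters hold a B box, the replicate 1 input list had a summit at 50.5% and the replicate 2 input list at 75.2%. In the same input lists the B box snoRNA genes had a summit at 72.7% and 84.8%, a smaller gap. For PSE-like snoRNA genes the counts were 12 of 38 (31.6%) in replicate 1 and 8 (21.1%) in replicate 2. For snoRNA genes with neither they were 15 and 25 of 275 (5.45% and 9.09%). In each replicate both kinds thus had a larger share than the genes with neither.

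**Figure D3:**
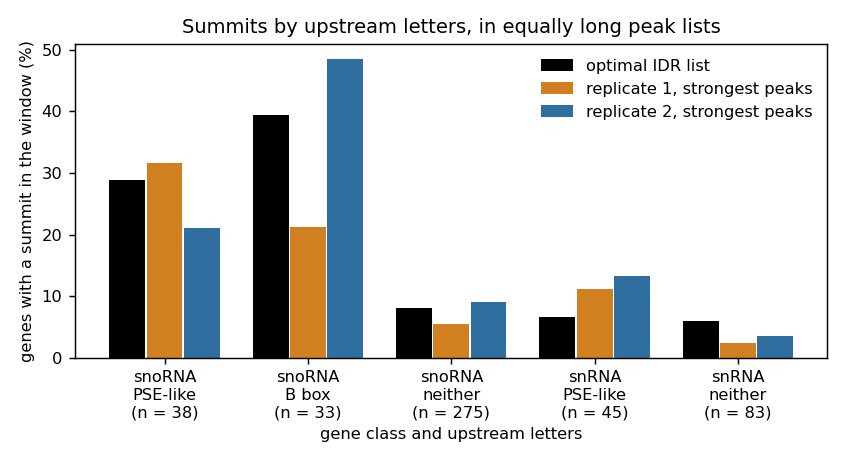
Share of genes with a summit in the window (y axis, percent) by gene class and upstream letters (x axis, with the number of genes), in the optimal IDR list (black) and in as many strongest peaks of replicate 1 (orange) and replicate 2 (blue). The B box snoRNA genes reach 39.4%, 21.2% and 48.5% in these lists, and the snoRNA genes with neither kind of letters at most 9.09%.

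Hosted and stand-alone snoRNA genes differed by kind of letters in the optimal IDR list. With PSE-like letters, 7 of 12 hosted copies (58.3%) and 4 of 26 stand-alone copies (15.4%) had an optimal IDR summit. With B box letters it was 3 of 12 hosted (25.0%) and 10 of 21 stand-alone (47.6%). With neither, 8 of 159 hosted copies (5.03%) and 14 of 116 stand-alone copies (12.1%) had one. These are small groups, and the order of hosted and stand-alone copies within the PSE-like group is the reverse of that over all snoRNA genes.

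The shorter snoRNA genes had the larger share: 23 of 93 genes under 100 nt (24.7%) and 23 of 253 longer ones (9.09%). Replicate 1 alone gave 11 of the 93 (11.8%) and replicate 2 alone 22 (23.7%), beside 9.09% and 10.7% of the longer ones. Short B box genes accounted for 10 of the 23 short genes with a summit, out of 17 such genes (58.8%).

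Among the B box snoRNA genes, T03F7.8 (chrV:11314258-11314332, plus strand) had the strongest summit, 2 bp inside its own 5′ end and within cutl-18 on the other strand, 2641 bp from that gene's start. Its pooled signal was 50.5 (rank 600), 12.3 in replicate 1 (rank 1062) and 36.6 in replicate 2 (rank 558). T19B4.8 followed with 48.1 (rank 643), and ranks of 500 and 768, its summit 38 bp upstream and 4852 bp from the start of pamn-1, a gene for a peptide-amidating enzyme. Both were among the 1546 strongest peaks of each replicate. Y43F8C.22 (chrV:19643050-19643187, minus strand), inside Y43F8C.7, had its summit 27 bp upstream and a pooled signal of 46.2 (rank 680), with ranks of 1281 and 543.

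Most other B box genes leaned on replicate 2. At C51F7.3 (chrV:12303708-12303783, plus strand), in an intron of the FERM-domain gene frm-7, the pooled signal was 37.8 (rank 864) and the replicate 2 rank 629, and no replicate 1 peak had its summit within 100 bp. At W03C9.9 (chrII:11960898-11960959, plus strand) the pooled signal was 34.7 (rank 976), with ranks of 7286 in replicate 1 and 822 in replicate 2. ZK484.9, within the ABC transporter gene haf-9 on the other strand, had 40.2 (ranks 1706 and 739). T02E1.9, within spe-12, a sperm gene, had 34.0 (ranks 3472 and 759), 470 bp from the start of T02E1.2. Y75B12B.12 went the other way, with 42.2 and ranks of 496 and 877, 221 bp from the start of Y75B12B.11. The weakest B box members were C04G6.12 (23.8, rank 1540), F12F6.11 (28.7, rank 1230) and F11A10.9 (29.8, rank 1176). C04G6.12 had no replicate 1 summit in its window and ranked 1372 in replicate 2. F12F6.11 ranked 2195 and 1130 in replicates 1 and 2, while F11A10.9 ranked better in replicate 1 (758 and 1484).

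Of the PSE-like snoRNA genes, Y53F4B.47 has been described. Y37E3.20, hosted by pcyt-2.1, a gene of phospholipid synthesis, had a pooled signal of 52.0 (rank 571) and ranks of 406 and 698, with a coding start 286 bp away. F59C6.15 had 39.0 (rank 833), with ranks of 904 and 908 that were nearly the same, and a coding start 763 bp away. F54F11.6 (chrII:13521301-13521471, plus strand), inside the chemoreceptor-family gene sre-45, had 38.6 (rank 843) and ranks of 722 and 833, with its summit 225 bp past the 5′ end and downstream of the gene. ZK994.7, in the peroxidasin gene pxn-1, had 42.5 (rank 765), and its ranks of 4864 and 525 were far apart. C16D9.11 (chrV:8228900-8228969, minus strand), inside rol-3, a receptor tyrosine kinase gene, had 35.7 (rank 938) with its summit 59 bp upstream and ranks of 3112 and 1096.

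The 14 PSE-like members with an optimal IDR summit, snRNA genes included, had it at a median of 29 bp from the nearest end of the letters. The farthest of them was at 270 bp. The 13 B box members had it at a median of 25 bp and at most 76 bp. Elsewhere the letters rarely had a summit: 0.286% of 8041 PSE-like matches and 0.187% of 37991 B box matches away from snRNA, snoRNA and tRNA genes had an optimal IDR summit within 100 bp. Genome windows also rarely held one: the share was 0.492% at the length of members with 100 bp on either side, a longer window. Upstream of the members a summit lay within 100 bp of 10 of 83 PSE-like matches and 13 of 34 B box matches (38.2%). These counts use a slightly different distance from the medians, which matters at Y37E3.20, 95 bp from the nearest end of its letters. Protein-coding gene starts with the letters upstream had an optimal IDR summit in 2.17% (PSE-like, 46 genes) and 4.91% (B box, 285 genes) of their windows, beside 4.92% of all such windows.

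**Figure D4:**
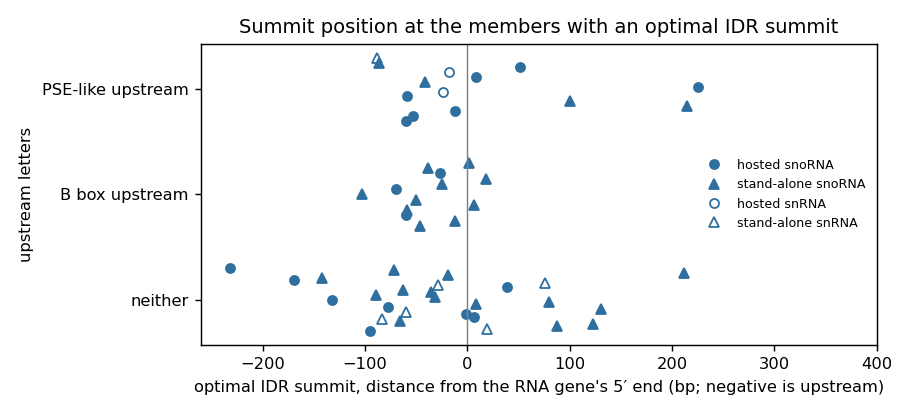
Position of the optimal IDR summit relative to the 5′ end of the RNA gene (x axis, bp, negative is upstream) for the 54 members, by upstream letters (y axis; points are spread vertically for legibility). Filled symbols are snoRNA and open symbols snRNA genes, circles hosted and triangles stand-alone; 36 of the 54 summits are left of the line at 0.

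The remaining named members had neither kind of letters. Y53F4B.48, 333 bp from the start of the glutathione S-transferase gene gst-27, had a pooled signal of 36.4 (ranks 949 and 963 in the replicates). K02C4.8, 283 bp from the start of K02C4.2, had 34.4 (ranks 3413 and 881). ZK265.10, 622 bp from the start of sre-23, had 36.7 (ranks 7433 and 1073). Both summits lay in coding promoter windows. C36E8.11, 232 bp from the start of tif-1A, had 35.3 and was one of the genes better ranked in replicate 1 (549) than in replicate 2 (1387).

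E2F-type letters (TTNNCGC, each N being C or G, on either strand) lay within 100 bp of the summit at 11 of the 54 members (20.4%), beside 37.2% of the 1522 nuclear optimal IDR summits. They were found at 3 of the 14 PSE-like members, sls-2.8 among them, at 2 of the 13 B box members and at 6 of the 27 with neither.

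A smaller share of the members' summits than of the list at large ranked high in both replicates. A summit within 100 bp of the pooled one ranked in the 1546 strongest of both replicates at 22 of the 54 members (40.7%), beside 898 of the 1522 nuclear optimal IDR summits (59.0%). Counting any summit in the window, 28 of the 54 were in the strongest 1546 of replicate 1 and 45 in those of replicate 2, and 3 were in neither. Of all nuclear optimal IDR summits, 70.1% had such a summit within 100 bp in replicate 1 and 85.5% in replicate 2. The whole list thus also leaned on replicate 2. The median ranks were 1150 in replicate 1 (51 members with a summit) and 906 in replicate 2 (54 members). All 13 B box members ranked within the 1546 strongest of replicate 2 and 5 within those of replicate 1, while the 14 PSE-like members had 11 in each.

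**Figure D5:**
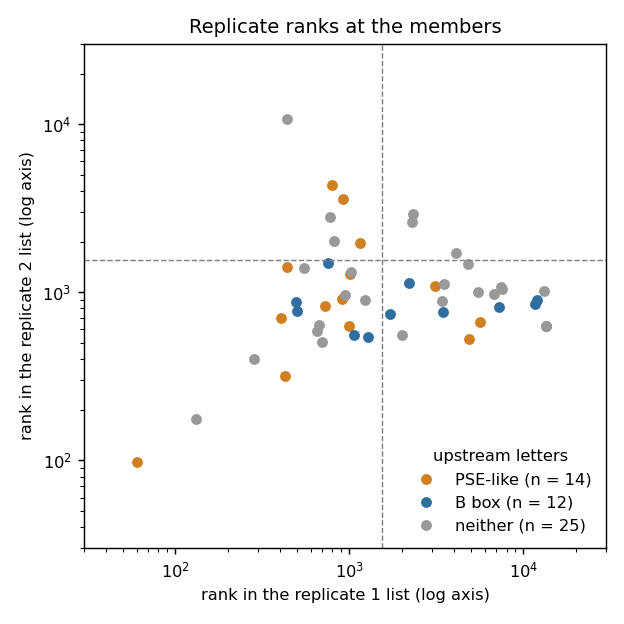
Rank of the strongest summit in the window in the replicate 1 list (x axis) and the replicate 2 list (y axis), both log scales, for the 51 members with a summit in both, coloured by upstream letters. Dashed lines mark rank 1546; B box members lie below the horizontal line, on both sides of the vertical line.

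By chromosome, the shares were 14.9% of 87 members on II, 13.3% of 90 on I, 12.6% of 95 on V and 7.46% of 67 on III, and 12 of the 100 members on IV had a summit. None of the 36 members on X had an optimal IDR summit, and 12 had a pooled one (33.3%). Among genome windows X was also lowest: 0.187% of those on X held an optimal IDR summit, beside 0.708% on V, 0.915% on IV, 1.19% on II, 1.43% on I and 1.51% on III. Stand-alone copies under a coding gene on the other strand had an optimal IDR summit in 9 of 65 cases (13.8%), and those with no coding gene over them in 25 of 186 (13.4%). Hosted copies that touched a host exon had one in 2 of 42 cases, and those wholly in introns in 18 of 178 (10.1%).

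The host genes themselves had DPL-1 at their promoters more often, by count, than protein-coding genes at large. Of 191 host genes, 48 (25.1%) had an optimal IDR summit in a promoter window, beside 9.16% of all 19973 protein-coding genes. Hosts with ribosomal protein symbols (rpl or rps) made up 13 of the 48, out of 15 such hosts, and other hosts 35 of 176 (19.9%). This split was made after the values had been seen. Summits at hosted copies were mostly separate from host promoters: of the 20 hosted copies with an optimal IDR summit, the summit lay in a host promoter window at 4, and 16 had no summit at their host's promoter. The host nol-56, a box C/D snoRNP protein gene, had a promoter summit of signal 49.8 (rank 608), and none of the 4 snoRNA genes in it had an optimal IDR summit.

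Genes whose products make or package these RNAs were counted by the same promoter window and set beside the 9.16% of all protein-coding genes. All 9 snoRNP core protein genes found in the annotation had an optimal IDR summit. The 4 strongest were dkc-1, the pseudouridine synthase of H/ACA particles (signal 166, rank 70), nol-58 of box C/D particles (107, rank 199), the assembly ATPase gene ruvb-2 (63.0, rank 467) and nol-56. Of 8 snRNA promoter factor genes, 4 had one: snpc-3.4 (185, rank 53), snpc-1.1 (67.5, rank 421), snpc-1.2 (37.4, rank 877) and snpc-3.2 (29.7, rank 1181), all named for SNAPc subunits. snpc-4, the gene of the largest SNAPc subunit, and tbp-1 had none. Of 12 snRNA maturation genes, 5 had one, led by smn-1 (176, rank 60), whose product assembles Sm rings, with lsm-5 (47.8), lsm-7 (47.2) and lsm-3 (41.7), subunits of the LSm ring. Of 10 genes of the Integrator complex, which cleaves the 3′ ends of snRNAs, 2 had one, ints-4 (133, rank 129) and ints-1 (47.0, rank 665). At 14 of these 20 genes, 7 of the 9 snoRNP genes among them, the summit also lay in the promoter window of another coding gene, so the gene bound cannot be told apart there. The exceptions were nol-56, ruvb-2, snpc-3.2, snpc-3.4, lsm-5 and ints-4.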

How the data were processed

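DPL-1 ChIP-seq of 2 biological replicates was used through 4 ce11 peak lists. Per the deposited description files, the authors called peaks on each replicate and on the pooled reads against a control and derived the optimal IDR list from those calls. The signal value of each peak, deposited by the authors, is their peak caller's enrichment on a scale of its own for each list. The replicate and pooled lists held 30000 peaks each. Which aligner and which peak caller were run is not given in the sources used here. The control, the reads, the signal tracks and the ce10 lists were not analysed here, and depth is unknown.

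Genes and biotypes came from the Ensembl annotation of WBcel235 and symbols from RefSeq by WormBase gene ID (475 of 475 matched). Python 3.11.15 took the strongest summit in each window, blastn 2.17.0 grouped snRNA sequences, and matplotlib 3.10.9 drew the plots. The summit count was checked on simulated data, with 200 of 200 planted summits recovered. No test was run: members share sources and there is 1 group. The genes named were the 30 members of highest signal, the 5 strongest members outside the optimal list, the snRNA classes, and up to 4 genes of each list of related factors. Any other gene named was chosen after its values were seen. The members, lists and rules were chosen with earlier results of these data known. The names dic-1, ints-12 and nhp-2 matched no annotated gene and were dropped from the lists.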

Additional observations from a re-analysis of the deposited data

How the results depend on the processing

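The 54 members with an optimal IDR summit became 48 with 100 bp on either side, 64 with 500 bp, 36 with the upstream 250 bp alone and 56 with any overlap of the peak interval. Larger moves came with the gene body only: 12 members, 4 hosted and 8 stand-alone copies, and 70 with a pooled summit. The upstream side alone left 21 stand-alone copies, and 114 members with a pooled summit. The 773 strongest optimal peaks left 16 members, 6 hosted and 10 stand-alone, and 26 hosts. Each replicate alone gave 41 to 58 members, 14 to 21 hosted copies, 27 to 37 stand-alone copies, 43 to 51 hosts, and 190 to 240 members in the input lists. The other settings of these counts stayed within 1.5 times. Hosts on either strand gave 26 hosted and 28 stand-alone copies with a summit.

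Other spellings of the upstream letters or a longer reach, chosen after the data were seen, gave 26.7% to 28.6% of snoRNA genes with a summit for PSE-like letters and 37.1% to 43.5% for B box letters. One longer B box spelling left 7 of 18 genes in place of 13 of 33; the shares stayed close, at 38.9% and 39.4%. Fewer peaks and narrower windows lower a count by construction; the cause of the other moves was not tested. No paired analysis was possible because the study has a single group. Windows of 60 members overlap another member's, and unknown depth leaves absence at a gene undecided.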
